A study of Arabidopsis thaliana with 28 samples.

Results

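The ATMYC1 locus of Arabidopsis thaliana is described here as 40 overlapping windows of chromosome 4 (TAIR10, chr4:214051-220100), out of 794311 windows over the genome. The windows are 200 bp long and start every 150 bp, so neighbours share 50 bp. The locus was selected on its read counts, which persisted in immunoprecipitates of RNA polymerase V (Pol V) from mutants in which such signal is lost elsewhere. Its counts are therefore given as a description and carry no evidence of their own. At the lower bound of the locus the windows just inside and just outside each held 0 reads over all libraries, and at the upper bound they held 3 reads and 1 read.

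ATMYC1 (AT4G00480) encodes a basic helix-loop-helix transcription factor related to GL3, EGL3 and TT8. Of these, GL3 and EGL3 act with MYB proteins and the WD40-repeat protein TTG1 in the patterning of trichomes and root hairs. Pol V is a plant RNA polymerase whose non-coding transcripts serve as scaffolds for RNA-directed DNA methylation (RdDM): small RNAs bound to AGO4 pair with the transcripts, and the DNA methyltransferase DRM2 is directed to the site. The chromatin remodeller DRD1 and the structural protein DMS3 belong to the DDR complex required for Pol V transcription, SUVH2 and SUVH9 bind methylated DNA and bring Pol V to chromatin, and SPT5L associates with Pol V and resembles the elongation factor SPT5. CG and CHG methylation can be maintained by other enzymes, whereas CHH methylation (H is A, C or T) at RdDM sites has to be renewed.

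RNA was immunoprecipitated with an anti-NRPE1 antibody, which recognises the catalytic subunit of Pol V, and sequenced with a template-switching protocol that captures RNA ends (IPARE). All plants were of the Columbia ecotype, and the IPARE material was 18-day-old seedlings. There were 24 libraries from 11 genotypes: Col-0 wild type (6 libraries), nrpe1 (5), spt5l, ago4, dms5-1 and drd3-3 (2 each), and, with 1 library each, drd1, dms3, both single mutants suvh2 and suvh9, and the double mutant suvh2/suvh9. The labels give no allele for the genotypes other than dms5-1 and drd3-3, do not name the genes behind those mutants, and do not say whether libraries came from separate plantings, so the spread between libraries may be technical. The libraries carry 6 set tags (untagged and gp2 to gp6) whose meaning is not stated. Shares of Col-0 are taken against the Col-0 library of the same set, and the edgeR tests compare each mutant that has 2 or more libraries with all 6 Col-0 libraries. Whole-genome bisulfite sequencing was available as the authors' averages of 2 Col-0 and 2 nrpe1 samples of 3.5-week-old leaves. Library totals ran from 785943 to 6957714 summed window counts. Levels are reads per 1000000 reads in windows that the authors classed as not transcribed by Pol V, without the rDNA windows, and those scaling totals ran from 222447 to 1651872 reads. The photosynthesis genes RBCS1A, RBCS3B, LHCB1.3, RCA and GAPA, used to check the green tissue of the label, had reads in all 24 libraries.

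The signal at the locus was a single narrow peak at the ATMYC1 end that faces AT4G00467. Windows of the locus held 6566 reads over all libraries, reads in overlaps being counted in both windows, and 6506 of them (99.1%) fell in 2 adjacent windows. The peak window, chr4:216601-216800, held 3284 reads and its midpoint lies between AT4G00467 and ATMYC1. The next window, chr4:216751-216950, held 3222 reads and its midpoint lies within ATMYC1. The count of the second window was 93.2% to 103% of that of the peak window in the 17 libraries with more than 2 reads there, so the 2 windows repeat each other and are not separate measurements. The window before the pair held 2 reads and the window after it 7, which leaves nearly all of the signal to 250 bp, chr4:216651-216900. Neither the counts nor the gene table gives a strand, so the direction of this transcript relative to ATMYC1 is not given. Whether sequence of the peak recurs elsewhere in the genome was not analysed.

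Outside the pair of peak windows the locus was nearly empty. The other 38 windows held 60 reads over 24 libraries, never more than 3 in a window of a library, and 30 of them had no read in any Col-0 library. With the peak pair included, 8 of the 40 locus windows lie in AT4G00467, a protein-coding gene with no name, and held 0 reads. Of the rest, 5 lie on the side of AT4G00467 away from ATMYC1, 5 between AT4G00467 and ATMYC1, 21 in ATMYC1 and 1 between ATMYC1 and BAM2, a beta-amylase. Reads appeared in 26 of the 40 windows, the peak pair among them, and were absent from all libraries in 14. The authors' classes put 34 windows among those not transcribed by Pol V and 6 among Pol V windows outside RdDM ("non-RdDM"), and 0 in the RdDM class. The 6 non-RdDM windows formed 2 stretches. One comprised the peak pair and the 2 windows after it, starting at 216901 and 217051, which held 7 and 4 reads. The other lay at the far end of ATMYC1, in the windows starting at 219601 and 219751, which held 7 and 8 reads. Over the genome 158314 windows were RdDM and 204367 non-RdDM.

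**Figure D1:**
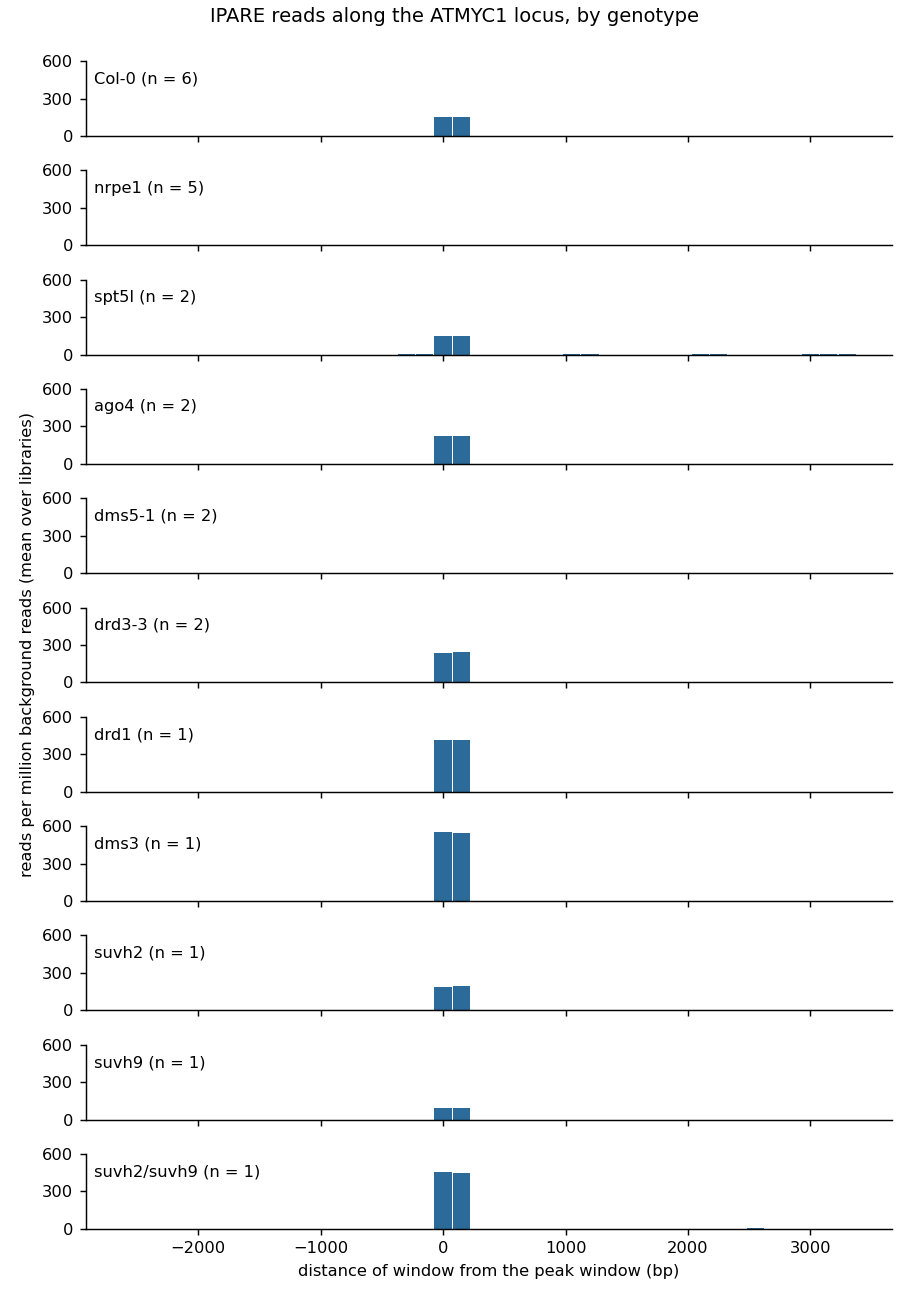
Mean scaled level of each of the 40 locus windows by distance from the peak window (bp), in reads per 1000000 reads of the scaling windows, one panel per genotype. In the genotypes with signal it stands in the 2 peak windows, and the other 38 windows lie at or near 0.

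The narrowness of the peak was set beside other windows of high signal, a comparison chosen after the counts were seen. In the Col-0 libraries 99.7% of the reads of the 21 windows centred on the peak window lay in it and its higher neighbour. Among 461 non-RdDM windows that were local maxima and had at least 25% of the Col-0 level of the peak, the median share was 51.5% (quartiles 39.7% and 71.1%). Among 3841 such RdDM windows it was 49.8% (quartiles 38.8% and 64.9%), and among 659 windows not transcribed by Pol V it was 79.5% (quartiles 57.3% and 96.6%). The ATMYC1 share lay above all of the RdDM and non-RdDM values and at percentile 97.7 of the last group.

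In wild type the peak window held 219 reads in the untagged Col-0 library, 115 in gp2, 146 in gp3, 100 in gp4, 48 in gp5 and 23 in gp6. On the common scale these were levels of 239, 121, 147, 229, 118 and 74.9, with a mean of 155 ± 65.7 (SD, n = 6). The wild-type libraries thus differed by about the size of their own mean, and the lowest came from one of the shallower libraries. Counting alone gave a 95% exact Poisson interval of 208 to 273 for the untagged library, and 187 to 279 for gp4. Such intervals cover counting error only, since reads are not independent molecules and the sources used here do not say whether molecular identifiers were used to merge copies.

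Without NRPE1 the peak was all but absent. The peak window held 1 read in the untagged nrpe1 library, 0 in gp3, 0 in gp4, 1 in gp5 and 2 in gp6, at levels of 1.19, 0, 0, 2.04 and 7.47. The 2 libraries with no read allow levels of up to 3.67 (gp3) and 5.41 (gp4), taking 3 reads as a one-sided limit, and their two-sided 95% exact Poisson intervals reach 4.51 and 6.65. All 5 nrpe1 libraries lay below all 6 Col-0 libraries, and over all of them Col-0 held 651 reads and nrpe1 4, a ratio of scaled levels of 120 (95% counting interval 46.7 to 443). In bulk seedlings fewer cells with the transcript and less transcript per cell cannot be told apart. The RNA was precipitated with an antibody to NRPE1 itself. In nrpe1 a transcript that is made but not precipitated therefore cannot be told from one that is not made.

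The 2 mutants found only in the gp5 and gp6 sets lay on opposite sides of Col-0 of the same set. In dms5-1 the peak window held 1 read in each library, at levels of 4.18 and 2.57 (mean 3.38 ± 1.14, SD, n = 2). In drd3-3 it held 48 and 70 reads, at levels of 216 and 258 (mean 237 ± 29.8, SD, n = 2). The dms5-1 libraries lay below every Col-0 library. The drd3-3 libraries lay above the Col-0 libraries of their own sets, where the levels were 118 and 74.9, and 1 of the 2 lay above all Col-0 libraries. Within the sets drd3-3 held 183% (95% counting interval 120% to 279%) and 344% (212% to 578%) of the Col-0 level, against 3.56% and 3.43% in dms5-1. Over both peak windows the drd3-3 mean was 267% of Col-0 of the same sets but 156% of the mean of all Col-0 libraries. In these sets nrpe1 stood at 1.74% and 9.97% of Col-0. The ratio of dms5-1 to nrpe1 over both sets was 0.804 and rested on 2 and 3 reads, with an interval of 0.0671 to 7.02 that includes several-fold differences either way.

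In the DDR mutants the peak was kept. The peak window held 462 reads in drd1 and 465 in dms3, against 100 in Col-0 of the same set, gp4. Their levels of 414 (95% exact Poisson interval 377 to 454) and 552 (503 to 605) lay above those of all 6 Col-0 libraries. They were 181% (145% to 226%) and 241% (194% to 302%) of the gp4 Col-0 library, and dms3 stood 1.33 times above drd1 (1.17 to 1.52). With 1 library per genotype these intervals compare libraries and hold no replicate error. Neither library had a read in the other 38 windows.

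The mutants of the methyl-binding proteins differed among themselves. The double mutant suvh2/suvh9 held 387 reads at a level of 457 (413 to 505), 199% of gp4 Col-0 (160% to 251%) and above all 6 Col-0 libraries. The suvh2 library held 165 reads at 189 (161 to 220), 82.4% of Col-0 (63.9% to 107%), an interval that includes equality. The suvh9 library held 48 reads at 95.9 (70.7 to 127), 41.8% of Col-0 (29.0% to 59.6%). Both single mutants lay within the span of the 6 Col-0 libraries. The double mutant was 2.42 times above suvh2 (2.01 to 2.92) and 4.77 times above suvh9 (3.53 to 6.58), each pair being 1 library against 1. The share of all counts lying in rDNA also differed between these libraries. It was 31.5% in gp4 Col-0, 32.0% in suvh9, 38.9% in suvh2, 46.7% in the double mutant, 49.1% in drd1 and 53.2% in dms3. The 3 libraries with the highest peak levels thus had more rDNA counts than Col-0, but the order was not the same, as suvh2 had more rDNA counts than Col-0 and a lower level. In the nrpe1 library of the set, where the peak held no read, the share was 61.3%. The part of rDNA in the levels was not tested. Scaling to library totals instead raised the values, taken over both peak windows, from 181% to 439% of Col-0 in drd1, from 241% to 516% in dms3 and from 199% to 432% in the double mutant. The same scaling moved suvh2 from 83.5% to 136%, so its side of Col-0 depends on the scaling.

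The mutants of AGO4 and SPT5L kept the peak as well. In ago4 the peak window held 428 reads (gp2) and 195 (gp3), at levels of 259 and 191. These were 215% (174% to 266%) and 130% (104% to 162%) of Col-0 of the same set, and 1 of the 2 libraries lay above all Col-0 libraries. In spt5l it held 244 reads (untagged) and 115 (gp3), at levels of 212 and 91.2, which were 88.7% (73.6% to 107%) and 62.0% (48.2% to 79.8%) of Col-0. The spt5l libraries lay within the Col-0 span.

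**Figure D2:**
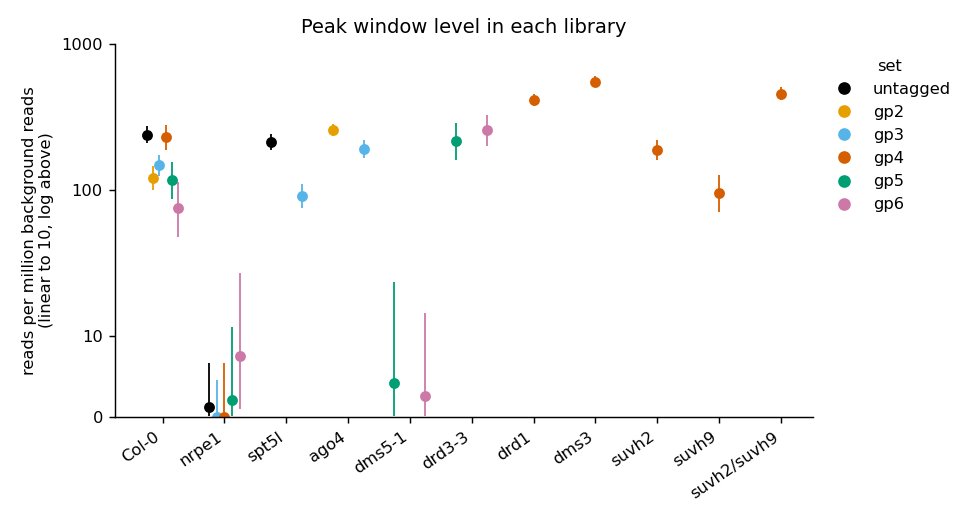
Scaled level of the peak window in each of the 24 libraries by genotype, on an axis that is linear up to 10 and logarithmic above, with points for libraries coloured by set and 95% exact Poisson intervals for counting error. The nrpe1 and dms5-1 libraries lie below 8, and all others lie at 74.9 or above.

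By mean level the genotypes ran dms3 (552), suvh2/suvh9 (457), drd1 (414), drd3-3 (237), ago4 (225), suvh2 (189), Col-0 (155), spt5l (152), suvh9 (95.9), dms5-1 (3.38) and nrpe1 (2.14). Neighbours from drd3-3 down to suvh9 overlapped in their single libraries or intervals, as did dms5-1 and nrpe1. The single libraries of the first 3 lay above every other library, with intervals that overlapped between dms3 and suvh2/suvh9 and between suvh2/suvh9 and drd1. No library lay between the 7.47 of nrpe1 in gp6 and the 74.9 of Col-0 in gp6.

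The same share of Col-0 was then computed for other Pol V windows with at least 20 reads in the Col-0 library of the set. In gp4 the median over 13884 RdDM windows was 0 in drd1, 0 in dms3 and 6.60% in the double mutant, and their 95th percentiles were 9.50%, 13.0% and 29.4%. Of these windows 5 lay above the ATMYC1 value in drd1, 3 in dms3 and 2 in the double mutant. The 2320 non-RdDM windows, the class of the peak, were added to the comparison after the class was seen. Their medians were 0 in drd1, 0.637% in dms3 and 6.18% in the double mutant, with 95th percentiles of 96.1%, 104% and 86.4%, and 3, 2 and 1 of them lay above ATMYC1. The single mutants placed the peak differently. In suvh2 it lay at percentile 96.7 of the RdDM windows, whose median was 24.1%, whereas in suvh9 it lay at percentile 9.25, the median being 93.3%. Among the non-RdDM windows the peak lay at percentile 90.3 in suvh2 and 16.6 in suvh9. The 95th percentile of those windows in suvh2 was 154%.

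In drd3-3 the medians over RdDM windows were 0 (gp5, 4210 windows) and 11.3% (gp6, 849 windows), and 23 and 0 windows lay above the ATMYC1 share. Over non-RdDM windows the drd3-3 medians were 0 (gp5, 440 windows, with ATMYC1 at percentile 96.1) and 62.9% (gp6, 127 windows). The gp6 medians over those windows were also high in nrpe1, at 61.3%, and in dms5-1, at 55.8%. In ago4 the RdDM medians were 57.7% and 58.7%, with ATMYC1 at percentiles 97.5 and 98.7. In spt5l they were 61.5% and 71.6%, and ATMYC1 lay at percentiles 79.3 and 39.5, the nearest to the middle of any mutant that kept the peak. Over non-RdDM windows ATMYC1 lay at percentiles 98.1 (gp2) and 96.0 (gp3) in ago4. In spt5l its percentiles over those windows were 75.3 (untagged) and 30.8 (gp3). All of these percentiles describe a locus picked for its signal.

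**Figure D3:**
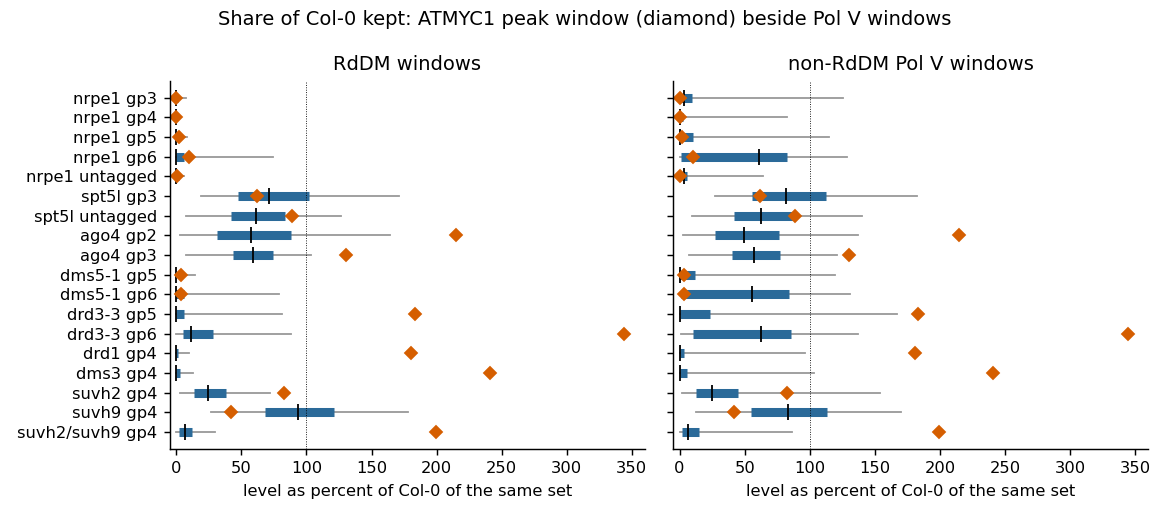
Share of the Col-0 level of the same set at the ATMYC1 peak window in each mutant library (percent), beside the spread of the same share over RdDM and non-RdDM Pol V windows with at least 20 Col-0 reads. Diamonds mark ATMYC1, ticks the medians, thick bars the quartiles and thin lines the 5th to 95th percentiles. The ATMYC1 value lies above the 95th percentile of both classes in drd1, dms3 and suvh2/suvh9.

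Over the whole table, windows were tested by quasi-likelihood in edgeR, and p-values were adjusted by Benjamini-Hochberg over all windows tested, with a threshold of 0.05. Only the 2 peak windows of the 40 passed the filter on low counts, so the counts below are of a repeated measurement, and the choice of the locus used these contrasts. In nrpe1 both were called lower, among 79.9% of 15296 windows tested (0.00654% were called higher), with a log2 change of −6.50 ± 0.85 (SE) at the peak window. In dms5-1 both were called lower, among 81.1% of 36843 (0.307% higher), with −5.51 ± 1.10. Against Col-0, 0 of the 2 were called in spt5l (−0.03 ± 0.67), where 3.37% of windows were called lower and 0.334% higher, and 0 in ago4 (0.54 ± 0.65), where 12% were lower and 0.844% higher. In drd3-3 0 were called (0.61 ± 0.66), where 73.4% were lower and 0.831% higher. In these 3 comparisons 0 of the 2 windows also had an unadjusted p under 0.05, and DESeq2 called 0, which does not show that the levels were equal. With TMM scaling both windows were called higher in drd3-3, at a log2 change of 2.18, a scaling that moved the median of all windows from −4.12 to −2.64.

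The difference between drd3-3 and dms5-1 was fitted in the same model, a comparison added after the counts were seen. As the locus was chosen for its counts in the mutants, the call and its p-value carry no evidence of their own. Both peak windows were called higher in drd3-3, with a log2 difference of 6.12 ± 1.17 (SE) and an adjusted p of 0.0377 by edgeR's quasi-likelihood test. They were among 9 windows called higher in the genome (0.0244% of 36843), with 0 called lower by edgeR, where 80 had an unadjusted p under 0.05, and 2 by DESeq2. The number of windows depends on the model, as 290 were called higher and 5 lower with the set as a block. The call did not survive the loss of a library: without either library of dms5-1 or drd3-3 the log2 difference ran from 5.76 to 6.43, with adjusted p from 0.0921 to 1 in edgeR's quasi-likelihood test. The reads alone were 118 against 2, which gave a 95% counting interval of 20.3 to 627 for the ratio of scaled levels.

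Windows that shared the pattern were rare under cutoffs set after the locus was seen. Of 18242 windows with at least 20 reads in gp4 Col-0, outside the locus and the rDNA, 15250 had nrpe1 at or below 5% of Col-0. Of those, 2 had drd1, dms3 and suvh2/suvh9 all at or above gp4 Col-0, and both belonged to 1 region beside AT4G09300, a protein-coding gene with no symbol. Its non-RdDM window, chr4:5896951-5897150, had a level of 216 in gp4 Col-0, 348 in drd1, 347 in dms3 and 296 in the double mutant. It stood at a mean of 332 in drd3-3, 10.6 in dms5-1 and 7.11 in nrpe1. Its CG methylation in Col-0 was 52.2% and its CHH methylation 2.38%, while the overlapping RdDM window, chr4:5897101-5897300, had 0 CG and 0.455% CHH. The non-RdDM window and its higher neighbour held 52.2% of the Col-0 reads of their surroundings, against 99.7% at ATMYC1. This region was also among the 9 windows of the drd3-3 contrast, with 2 of them. The count of windows sharing the pattern depends on the 5% limit for nrpe1. Windows of the small nuclear RNA genes U6.5 and U6.6 had drd1, dms3 and suvh2/suvh9 above gp4 Col-0 but nrpe1 above that limit. The count depends as well on the demand that drd1, dms3 and suvh2/suvh9 all reach the level of a single Col-0 library. Beside AT5G37740, the non-RdDM window chr5:14994151-14994350 stood at 73.4 in gp4 Col-0, 125 in drd1 and 116 in dms3. Its level in suvh2/suvh9 was 59.1, and its nrpe1 mean was 2.20.

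The windows most like the peak were ranked by Pearson correlation of log2(level + 1) over the 24 libraries, which share their scaling totals. Among 9606 RdDM windows with at least 25% of its Col-0 level the median correlation was 0.541 and the highest 0.916, beside the pseudogene AT5G29550. There the Col-0 mean was 172 and the nrpe1 mean 4.197. In the gp4 set its level was 190 in Col-0, 72.6 in drd1 and 74.9 in dms3, so it kept less of its signal in the DDR mutants than ATMYC1. AT2G05540 followed with the same 0.916, at 78.0 in gp4 Col-0, 50.2 in drd1 and 77.2 in dms3. AT3G06055, a long non-coding RNA gene, had 0.908, at 96.3, 44.8 and 39.2 in the same libraries. The other 7 of the first 10 regions lay between 0.888 and 0.898. Among 1242 non-RdDM windows the median was 0.466 and the highest were MIR8121, a microRNA gene, at 0.920, the tRNA gene AT3G18952 at 0.914 and AT5G00590, a non-coding RNA gene, at 0.910. The AT4G09300 region came next at 0.902. In gp4 Col-0, drd1 and dms3 the levels were 75.7, 39.4 and 72.5 at MIR8121 and 117, 110 and 176 at AT3G18952. At AT5G00590 they were 61.9, 105 and 61.8. Windows of U6 small nuclear RNA genes also ranked high (U6.5 at 0.890 and U6.6 at 0.896). At U6.5 the level was 296 in gp4 Col-0, 454 in drd1 and 528 in dms3. The means there were 150 over all Col-0 libraries and 30.1 in nrpe1. U6 and tRNA genes have near-identical copies, so their counts are uncertain.

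Partners of ATMYC1 in epidermal patterning, and its relatives, were looked up within 2 kb of each gene. All 13 were matched, 6 had RdDM windows, and 8 had a window with at least 20 Col-0 reads. Their strongest windows had a median Col-0 level of 6.60 and none reached the 155 of ATMYC1. The highest were in the RdDM class, in flanks of TTG1 (112), of the bHLH gene TT8 (95.5) and of the MYB gene MYB23 (94.6). At TTG1 the 65 reads of gp4 Col-0 compared with 0 in drd1, 1 in dms3 and 4 in the double mutant. At TT8 58 reads compared with 0, 0 and 16, and at MYB23 62 with 0, 0 and 10. On the common scale the TTG1 levels in these 4 libraries were 149, 0, 1.19 and 4.72. Those of TT8 were 133, 0, 0 and 18.9, and those of MYB23 142, 0, 0 and 11.8. The flank of TRY, an R3-type MYB repressor of trichomes, reached 21.0. GL3 and EGL3, the closest relatives named here, had only 3.40 and 2.47. At WER, a root-hair patterning MYB, the strongest window was not of a Pol V class and stood at 35.5 in Col-0 and 41.5 in nrpe1.

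Genes with methylated flanks or imprinted expression gave a further reference. All 10 had their strongest window in the RdDM class, with a median Col-0 level of 44.9. The highest was ROS1, the DNA demethylase gene, at 146, where 106 reads in gp4 Col-0 compared with 1 in drd1, 0 in dms3 and 11 in the double mutant. At HDG9, a homeodomain gene, at 134, 105 reads compared with 3, 5 and 32. At FWA, the imprinted homeodomain gene silenced by RdDM, at 31.0, 16 reads compared with 0, 0 and 3. On the common scale the ROS1 levels in gp4 Col-0, drd1, dms3 and the double mutant were 243, 0.896, 0 and 13.0. Those of HDG9 were 241, 2.69, 5.94 and 37.8, and those of FWA 36.7, 0, 0 and 3.54. The strongest windows of the other 7 genes lay between 22.2 (FIS2, a Polycomb gene of the endosperm) and 62.4 (HDG3, a homeodomain gene). The signal of ATMYC1 in wild type was thus near that of ROS1 and HDG9. Its levels in drd1, dms3 and the double mutant were 414, 552 and 457, against 229 in gp4 Col-0.

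**Figure D4:**
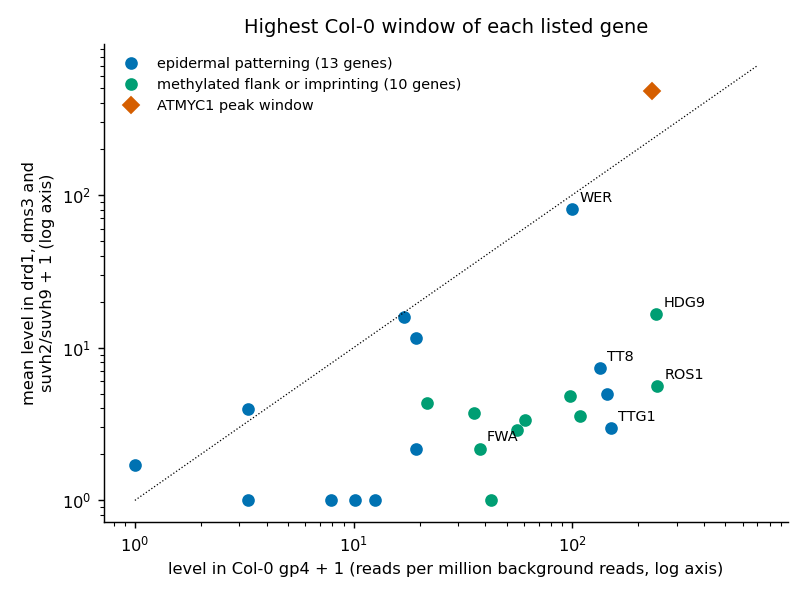
Scaled level + 1 in gp4 Col-0 (horizontal) against the mean of drd1, dms3 and suvh2/suvh9 + 1 (vertical), both on log axes, at the ATMYC1 peak window and at the strongest window of each of the 13 and 10 genes of the epidermal patterning and methylated flank lists. ATMYC1 lies above the dotted line of equal levels, and TTG1, TT8, ROS1, HDG9 and FWA lie below it. ETC2 (2.29 in gp4 Col-0) and GL1 (0 in gp4 Col-0) also lie above the line, on a few reads each.

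The locus held almost no DNA methylation in the authors' averages, which come without coverage and so without an error. In the peak window CG had no value in either genotype, CHG was 0 in Col-0 and without a value in nrpe1, and CHH was 0 in both. In the second window CHH in nrpe1 was the only value, at 0. Over the 40 windows CG had a value in 31 in Col-0, of which 25 were at 0 and 2 exceeded 5%. These were chr4:215551-215750 in AT4G00467, at 14.3% in Col-0 and 0 in nrpe1, and chr4:218101-218300 in ATMYC1, at 20.5% in Col-0 and 19.96% in nrpe1. CHG had a value in 35 windows in Col-0, 34 at 0 and the highest at 0.391%, and in 29 in nrpe1, all at 0. CHH had a value in 38 windows in Col-0, 31 at 0, with a highest value of 0.781% in the window starting at 219751, of the second non-RdDM stretch. In nrpe1 CHH had a value in 35, 25 at 0 and the highest at 0.274%. For comparison, the Col-0 medians over all RdDM windows were 79.2% CG, 35.6% CHG and 8.57% CHH, and those over all non-RdDM windows were 0 in each context, with means of 20.3%, 0.741% and 0.169%.

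The position of the signal within the locus is part of the rule that chose it, since the rule names the peak window, and it is given as a description with no test. The mean position of the locus reads, weighted by count, lay 104 bp from the midpoint of the peak window on average in Col-0 (31.8 to 231 bp over 6 libraries). It differed from the Col-0 mean by 24.0 bp in spt5l, −19.8 bp in ago4 and −28.3 bp in drd3-3. With 99.1% of the reads in 2 overlapping windows, a library that kept the peak had to lie near it. In nrpe1 the difference was 402 bp over 4 libraries with 12 locus reads in all, and in dms5-1 it was 409 bp over 5 reads. Without dms5-1 of gp5 that difference was −28.8 bp, and without nrpe1 of gp3 the nrpe1 difference was 96.2 bp, so these positions rest on a few reads of 1 library.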

How the data were processed

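The deposited window counts are the authors' whole-number read counts per window in the 24 IPARE libraries, not normalized. The methylation values are the authors' averaged fractions per window and context, deposited without coverage and printed here as percent. The submitters' processing notes name UMI-tools, cutadapt, Bowtie2, Bismark and TAIR10, without versions. Window classes are the authors' lists, which per the labels rest on Col-0 and nrpe1 of the untagged, gp3 and gp4 sets, so the class of the peak is not independent of its reads. Gene names came from a RefSeq table of another assembly name (TAIR10.1), whose coordinates are not printed. The locus, gene lists and comparisons were chosen with earlier results of these data known.

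Counts were tested with edgeR 4.0.16 in R 4.3.3 (filterByExpr with count minimum 10 and total minimum 15, glmQLFit, glmQLFTest, Benjamini-Hochberg adjustment) with library sizes set to reads in windows without Pol V transcription, rDNA left out (chromosome 2 starts under 12000, chromosome 3 starts from 14190000 to 14210000). Col-0 and nrpe1 were fitted on their own, and the other replicated genotypes in a model of 6 groups. Scripts were checked on simulated counts. DESeq2 1.42.0, other scalings and left-out libraries were alternatives. Named were the genes of the locus, the 10 windows most like the peak by correlation (a selection is printed) and the gene lists. No library pair was a duplicate (lowest chi-square per degree of freedom 2.60). Libraries of Col-0 and nrpe1 of the same set deviated together (correlations 0.185 to 0.416), which makes them pairs by the rule used. The fits reported are without the pairing, and the set as a block was an alternative.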

Additional observations from a re-analysis of the deposited data

Results flagged for a closer look

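The level of the peak window in the nrpe1 library of gp6, 7.47, stood apart from the other 4 nrpe1 libraries, with a gap of 0.726 of the group's range against a limit of 0.71 for 5 samples. It rests on 2 reads, and chance gives such a gap in about 1 in 20 groups. Between drd3-3 and dms5-1 the change from Col-0 at the peak window differed by a log2 value of 6.12, called by edgeR's quasi-likelihood test in the fit with all libraries. Without a library of either mutant the difference ran from 5.76 to 6.43 and the call was lost. The locus was chosen for its counts, so the call carries no evidence of its own.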

How the results depend on the processing

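The number of peak windows called lower against Col-0 kept its value (2 in nrpe1 and dms5-1, 0 in spt5l, ago4 and drd3-3) under all 73 alternatives run over the 5 comparisons. Both windows were called higher in drd3-3 against dms5-1 in 6 of the 10 alternatives, and 0 to 0 windows were called when a library of either was left out. Over both peak windows the share of Col-0 moved with the scaling. With library totals it was 98.7% in spt5l (from 75.6%), 4.01% in dms5-1 (from 3.51%), 439% in drd1, 516% in dms3, 136% in suvh2 and 432% in suvh2/suvh9. With rDNA kept in the scaling class it was 96.0% in spt5l, 2.77% in dms5-1, 236% in drd1 and 251% in suvh2/suvh9. With the mean of all Col-0 libraries as reference it was 97.1% in spt5l, 2.21% in dms5-1, 270% in drd1, 360% in dms3, 125% in suvh2, 62.7% in suvh9 (from 42.0%) and 296% in suvh2/suvh9. With that reference drd3-3 went from 267% to 156% and nrpe1 from 2.45% to 1.40%, within 1 SD of their libraries. The other shares stayed within 1 SD or, for genotypes with 1 library, within the counting interval, such as 279% in dms3 and 99.5% in suvh2 with rDNA kept. The cause of the moves was not tested. The shift of the mean position in nrpe1 ran from 96.2 to 546 bp with a library left out. It was 546 bp without nrpe1 of gp5 or gp6. No p-value is given for this shift, because the choice of the locus fixed the position. Restricting the position to RdDM windows gave no value, as the locus has none. With the set as a replicate block the log2 change at the peak was −6.70 in nrpe1, −5.14 in dms5-1, −0.24 in spt5l, 0.85 in ago4, 0.99 in drd3-3 and 6.13 for drd3-3 against dms5-1, and the block changed no call at the locus. Over all windows the block raised the windows higher in drd3-3 than in dms5-1 from 9 to 290, and TMM scaling to 147. Depth limits nrpe1 and dms5-1, where 0 to 2 reads stand behind each level.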

Other observations

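In the fit without the set as a block, 9 windows were called higher in drd3-3 than in dms5-1. They lay at 5 places: ATMYC1, AT4G09300 and 3 on chromosome 5. Beside AT5G37740, the RdDM window chr5:14994301-14994500 stood at a mean level of 189 in Col-0, 258 in drd3-3, 2.09 in dms5-1 and 3.67 in nrpe1. In the gp4 set it stood at 282 in Col-0, 125 in drd1 and 116 in dms3, and its CHH level in Col-0 was 19.6%. Its non-RdDM neighbour, chr5:14994151-14994350, stood at 61.7 in Col-0, 256 in drd3-3 and 0 in dms5-1. Beside AT5G04920, the window chr5:1441951-1442150 was not of a Pol V class, yet its level was 32.0 in Col-0, 3.09 in nrpe1, 79.3 in drd3-3 and 0 in dms5-1. It held 91.4% of the Col-0 reads of its surroundings in a pair of windows, and its CG and CHH levels in Col-0 were 0. Beside the pseudogene AT5G29550, the RdDM window chr5:11185501-11185700 stood at 406 in Col-0, 143 in drd3-3 and 0 in dms5-1, with CG at 76.4% and CHH at 13.6% in Col-0.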
